A study of Drosophila melanogaster with 17 samples.

Results

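The mitochondrial ribosomal protein genes were the 72 genes whose symbol begins with mRpL or mRpS followed by a digit, out of 14095 annotated loci counted in tissues of adult Drosophila melanogaster. By their symbols, 46 belong to the large subunit (mRpL) and 26 to the small subunit (mRpS). Subunit counts below go by the symbol alone, and the place of each protein in the ribosome was not checked. Poly-A RNA of dissected organs was sequenced in 17 libraries that form 8 groups. The fat body is a store of lipid and a source of yolk and immune proteins. It was sampled in young untreated flies 5 days old (2 libraries), in old untreated flies 50 days old (3 libraries), and in 5-day-old flies labelled Lam-RNAi (2 libraries). The midgut, where food is digested and absorbed, gave 2 libraries in each of the same 3 classes. Whole gut was taken from untreated flies at 5 days and at 40 days (2 libraries each). The 6 young untreated libraries are called wild type in the series design. RNA interference against Lam is a means of lowering Lam mRNA, which encodes lamin-B, a filament protein beneath the inner nuclear membrane. The sex of the flies, the driver of the interference and the tissue in which it was expressed are not given in the labels.

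Mitochondria carry their own small genome and translate its few messages on a ribosome of bacterial descent, the mitoribosome. Its RNAs are made inside the organelle, whereas all its proteins are encoded in the nucleus, made in the cytoplasm and imported. The messages it translates encode core subunits of the respiratory chain and the ATP synthase, so its proteins are needed wherever cells respire. Many mitoribosomal proteins have bacterial counterparts and keep their numbers, while others were added in the mitochondrial lineage. Among the 72 genes, 42 carry numbers of bacterial proteins (up to 36 in the large and 21 in the small subunit) and 30 carry higher numbers.

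Every one of the 72 genes was read in all libraries, with no gene at 0 reads and a lowest count of 133. Levels are given as CPM, the reads of a gene per 1000000 counted reads of its library, and totals were 31637135 to 78289614 reads. The 72 genes were of middling and fairly even abundance: their mean levels over 17 libraries ran from 6.43 to 130 CPM, with a median of 15.6 CPM against 10.4 CPM for all 13661 loci with a read, and 64 of them lay above that all-gene median. They are compact genes, with a median span of 850 bp against 2050 bp for all loci, and 70 of the 72 span less than 2000 bp. They are spread over the genome, with 20 on chromosome arm 3R, 17 on 3L, 12 each on 2L and 2R and 11 on X.

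Divided by coding length, the highest mean levels were those of mRpS5 (107 CPM per coding kb), a protein whose bacterial counterpart helps keep decoding accurate, mRpL53 (86.7 CPM per coding kb), a mitochondrial addition to the large subunit, and mRpL33 (74.6 CPM per coding kb), a very short large-subunit protein. The lowest were mRpL11 (14.6 CPM per coding kb), whose bacterial counterpart lies at the site where translation factors bind, mRpL44 (14.9 CPM per coding kb), a large-subunit protein with an RNase III-like fold, and mRpS18B (17.1 CPM per coding kb), a relative of mRpS18A and mRpS18C. The measure divides all reads counted for a gene by its coding length alone. It may thus read high where that length is short, as in mRpL33 (192 bp in a span of 439 bp). The strand setting of the counting is not given, so a gene that overlaps another may hold reads of its neighbour. By position 40 of the 72 overlap another gene and 32 overlap none. The overlap takes in most of the gene in 4 of them: mRpL13 lies inside CG10602, mRpL53 has the same annotated position as CG33155, which the files count separately, and lies inside AGO1, mRpS9 spans wtrw and CG10092, and mRpS24 overlaps CG6182. The levels of these 4 genes are uncertain for that reason. Partial overlaps touch other genes described here. They are of 281 bp with loco in mRpL45, 209 bp with Kua in mRpS18B, 168 bp with frtz in mRpL48 and 105 bp with CG12162 in mRpL44. Shorter ones are of 86 bp with Gfr in mRpL1, 84 bp with CG6028 in mRpL35, 51 bp with mib1 in mRpS31 and 46 bp with CG10927 in mRpS28. Overlaps of at most 77 bp lie in mRpL2, mRpL4, mRpL10, mRpL11, mRpL17, mRpL23, mRpL24, mRpL34, mRpL41, mRpL50, mRpS11, mRpS16, mRpS21 and mRpS34.

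The summed level of the 72 genes was 1457 and 1485 CPM in young fat body, 1272, 1328 and 1283 CPM in old fat body, and 1044 and 1017 CPM in Lam-RNAi fat body, so the fat body groups did not overlap and stepped down in that order. In midgut it was 1539 and 1827 CPM in young flies, 2041 and 2034 CPM in old flies, and 1876 and 1762 CPM with the Lam-RNAi label. Old midgut lay above both young libraries, and the Lam-RNAi libraries overlapped them. Whole gut held 1225 and 1248 CPM when young and 1701 and 1675 CPM when old, the latter within the range of young midgut. The group mean was highest in old midgut for 60 of the 72 genes and lowest in Lam-RNAi fat body for 59, while young whole gut was lowest for 10. Between a gene's highest and lowest group the ratio of mean CPM ran from 1.57 to 3.89, with a median of 2.18. The widest range was that of mRpL48, a protein of the central protuberance of the large subunit. Young midgut replicate 1 lay below replicate 2 and gave young midgut the largest spread, with a median coefficient of variation of 13.0% over the 72 genes.

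**Figure D1:**
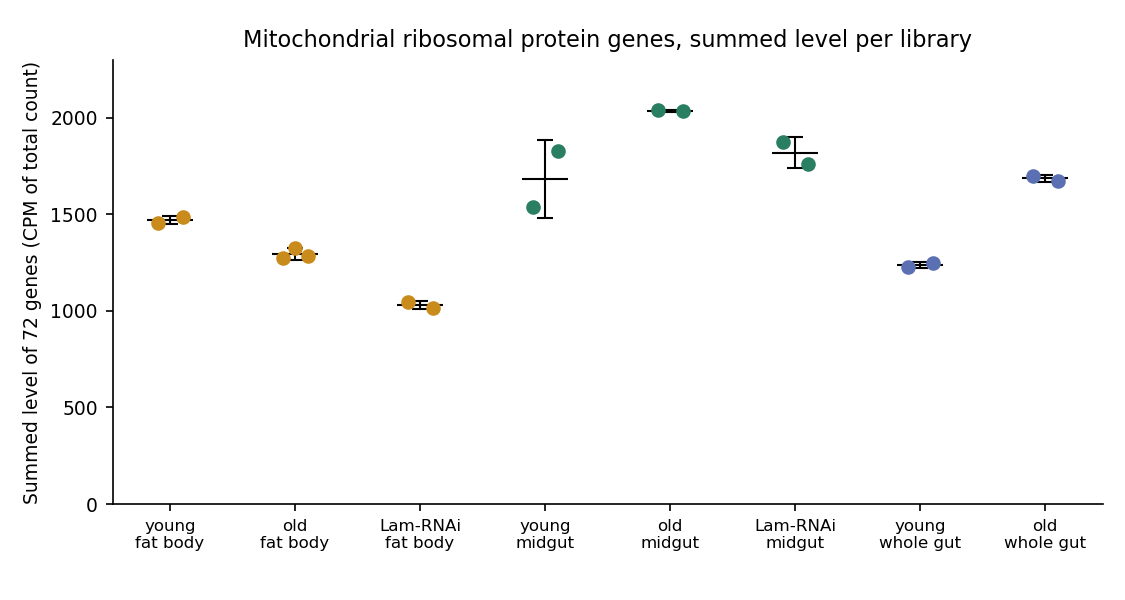
Summed level of the 72 mitochondrial ribosomal protein genes (y axis, CPM of total count) in each of the 8 groups (x axis); points are libraries, the long bar is the group mean and the whisker its SD. Old midgut libraries lie highest, at 2041 and 2034 CPM, and Lam-RNAi fat body libraries lowest, at 1044 and 1017 CPM.

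**Figure D2:**
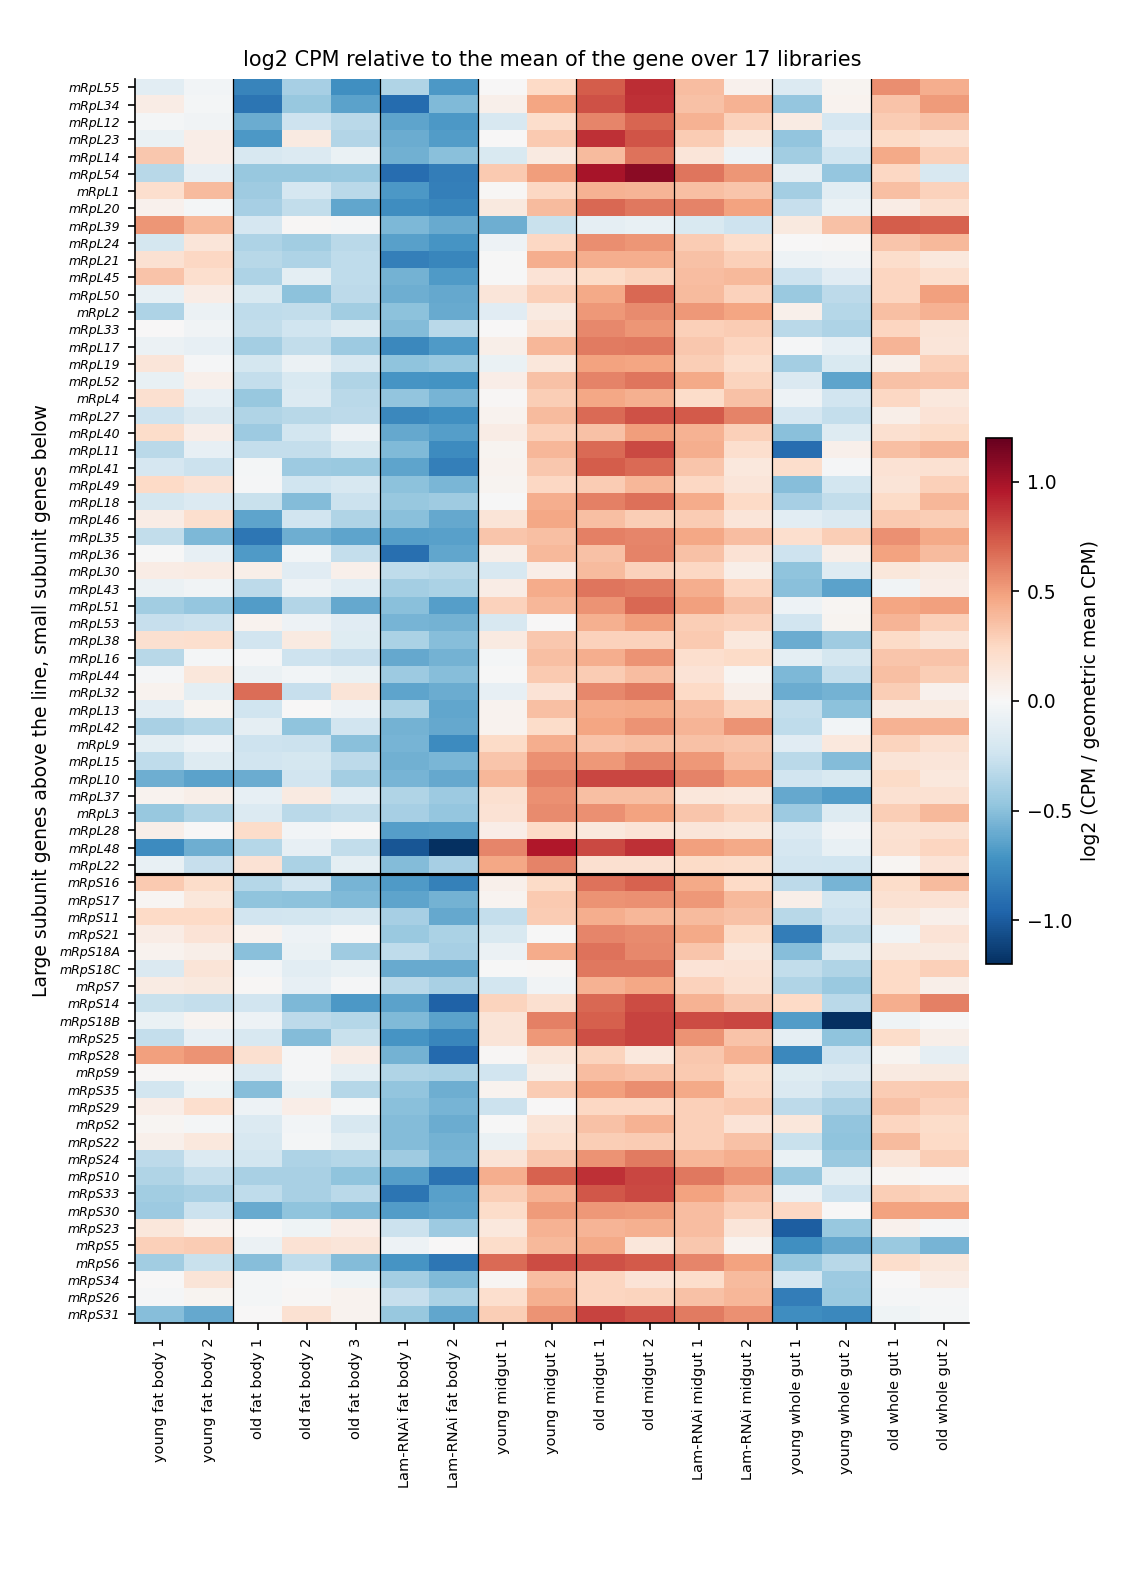
Level of each gene (rows, with mRpL symbols above the line and mRpS symbols below) in each library (columns, by group), as log2 CPM minus the gene's own mean over 17 libraries. Rows are ordered within each subunit by the difference between fat body and midgut in the change with age, from most negative to most positive. Old midgut is red and Lam-RNAi fat body blue in nearly all rows (red, above the mean of the gene; blue, below it).

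Lam itself was measured in every library first, as a check of the labels. Its level was 38.4 and 39.0 CPM in young fat body and 15.5 and 16.1 CPM in Lam-RNAi fat body, a log2 fold change of -1.12 ± 0.14 (SE, edgeR adjusted p = 0.00145). In midgut it was 28.9 and 32.1 CPM in young libraries and 32.0 and 30.4 CPM in libraries labelled Lam-RNAi (log2 fold change -0.11 ± 0.07, edgeR adjusted p = 0.173), so those libraries carried no measured loss of Lam mRNA and are named here by their label. In old flies no tissue showed a change of Lam that passed the test (41.2, 50.8 and 42.0 CPM in old fat body, 32.9 and 31.4 CPM in old midgut). In whole gut it was 19.5 and 16.7 CPM when young and 30.8 and 28.4 CPM when old, without overlap by CPM, and the log2 fold change with TMM factors was 0.21 (edgeR adjusted p = 0.152). The markers followed the tissue labels: 8 fat body markers summed to 34861 to 104354 CPM in fat body and 993 to 4950 CPM in gut libraries, and 8 enterocyte markers to 31004 to 52568 CPM in gut and 82.3 to 342 CPM in fat body.

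A part of the mitoribosomal genes was lower in old fat body. Of the 72 genes, 22 passed the test (1 higher, 21 lower; edgeR, adjusted p below 0.05) in old against young fat body. That share, 30.6%, was no larger than the 38.1% of all 10866 genes that passed, but its direction was uneven: 29.2% of the 72 fell against 19.0% of all genes, and 1 rose against 19.1% of all genes. The median log2 fold change was -0.24 over the 72 and 0.02 over all genes, with 64 of the 72 below 0. None of the 22 changed by as much as 2-fold. Fold changes here and below are scaled for library composition (TMM, trimmed mean of M-values), and so need not equal a ratio of CPM. In bulk tissue fewer cells of a type and less RNA per cell cannot be told apart.

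Among the genes that fell in old fat body was mRpL1 (3R, 4127163 to 4128492, plus strand), whose bacterial counterpart forms the mobile stalk through which spent tRNA leaves the ribosome. Its level was 30.4 and 34.6 CPM in young libraries and 19.7, 23.0 and 21.2 CPM in old ones. The groups did not overlap, and the log2 fold change was -0.69 ± 0.12 (SE, edgeR adjusted p = 0.00492). For mRpS16 (2R, 10060485 to 10061041, minus strand), whose bacterial counterpart helps the small subunit assemble, the libraries read 15.7 and 14.7 CPM when young and 9.94, 10.8 and 8.55 CPM when old (-0.72 ± 0.14, edgeR adjusted p = 0.0073). mRpS17, a small-subunit protein that binds ribosomal RNA, went from 16.5 and 17.9 CPM to 11.6, 11.5 and 11.2 CPM (-0.67 ± 0.09, edgeR adjusted p = 0.00182). All 3 genes were lower in every old library than in either young one.

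The largest fall by fold was that of mRpL34, a short large-subunit protein (6.38 and 5.91 CPM against 3.26, 4.37 and 3.84 CPM; -0.77 ± 0.20, edgeR adjusted p = 0.0249). mRpL12 forms the stalk that recruits translation factors in bacteria, and it fell by 0.43 on the log2 scale. mRpL45, which in mammals anchors the mitoribosome to the inner membrane, fell by 0.62, and mRpL55, a mitochondrial addition to the large subunit, fell by 0.63. The 1 gene that rose was mRpS31 (3L, 15998296 to 15999701, plus strand), a mitochondrial addition to the small subunit, with 15.2 and 14.1 CPM in young and 21.7, 24.5 and 22.3 CPM in old libraries. Its log2 fold change was 0.56 ± 0.12 (edgeR adjusted p = 0.0113), and every old library lay above both young ones.

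Several other members, mRpS5, mRpL10, mRpS29, mRpS30 and mRpS34 among them, did not pass in old fat body, with log2 fold changes from -0.29 to 0.13. By symbol, 17 of 46 mRpL genes fell and none rose, and of 26 mRpS genes 4 fell and 1 rose. Members with bacterial numbers (12 of 42 fell) and with higher numbers (9 of 30 fell, 1 rose) had medians of -0.28 and -0.22. Among the 32 genes free of overlap 11 fell and none rose, with a median of -0.30. The count rests on few libraries. Leaving out young replicate 1 or 2 gave 5 or 6 calls, leaving out old replicate 3 gave 9, and leaving out old replicate 2 gave 34. Only mRpL21 and mRpS17 passed with each library left out in turn. Without young replicate 1 mRpS16 had an edgeR adjusted p of 0.0605 and mRpL45 of 0.063, and without young replicate 2 mRpL1 had 0.0523. mRpS31 did not pass without either young replicate, with an adjusted p of up to 0.0922. mRpL34, mRpL12, mRpL55 and mRpS28 did not pass without young replicate 1, young replicate 2 or old replicate 3, with adjusted p-values of up to 0.128, 0.152, 0.174 and 0.129.

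Lam-RNAi fat body showed the lowest levels of the mitoribosomal genes. Of the 72 genes, 28 fell and none rose (38.9%), against 35.7% of all 10866 genes, of which 17.1% of genes fell and 18.5% rose. The median log2 fold change was -0.36 over the 72 and -0.01 over all genes, and 68 of the 72 lay below 0. The lowest value was that of mRpS28 (2R, 14501714 to 14502521, minus strand), by its symbol a gene of the small subunit. It was read at 16.7 and 17.2 CPM in young and 7.98 and 6.19 CPM in Lam-RNAi libraries, a log2 fold change of -1.08 ± 0.15 (SE, edgeR adjusted p = 0.00208), the only one of the 28 past 2-fold.

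mRpL1 fell from 30.4 and 34.6 CPM to 16.4 and 15.0 CPM (-0.88 ± 0.13, edgeR adjusted p = 0.00317). mRpL39 (3L, 14991080 to 14992764, minus strand), a mitochondrial addition to the large subunit, went from 35.9 and 32.6 CPM to 17.1 and 16.4 CPM (-0.86 ± 0.12, edgeR adjusted p = 0.00244). mRpL21, a large-subunit protein with a bacterial counterpart, went from 14.3 and 15.0 CPM to 7.12 and 7.30 CPM (-0.85 ± 0.10, edgeR adjusted p = 0.00112). In all of these the Lam-RNAi libraries lay below both young ones with no overlap. mRpS29, the fly counterpart of the human GTP-binding protein DAP3, fell by 0.50 on the log2 scale, mRpL45 by 0.72, mRpL12 by 0.45 and mRpS34 by 0.37. mRpS31 did not pass (15.8 and 14.0 CPM, log2 fold change 0.20, edgeR adjusted p = 0.266), and neither did mRpL55 (-0.26, edgeR adjusted p = 0.36).

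The fall in Lam-RNAi fat body covered 18 of 46 mRpL and 10 of 26 mRpS genes. It covered 15 of 42 with bacterial numbers, 13 of 30 with higher numbers, and 15 of the 32 free of overlap. Leaving out young replicate 1, young replicate 2 or Lam-RNAi replicate 1 gave 9 calls each, and leaving out Lam-RNAi replicate 2 gave 4. Those that passed every time were mRpL1, mRpL21, mRpL39 and mRpS28. mRpL12 and mRpS34 passed in none of the 4, with adjusted p-values of up to 0.214 and 0.224, while mRpS29 passed only without young replicate 1 (up to 0.0965 otherwise). Without Lam-RNAi replicate 2 mRpL45 had an adjusted p of 0.0597 and mRpS16 of 0.0631. Scaling by total counts alone gave 49 of 72 lower and none higher, with the median of all genes moved to -0.18. The share of all genes called with that scaling is not given here, so that count alone does not set the 72 apart.

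Old and Lam-RNAi fat body were both compared with the same 2 young libraries, so their fold changes are not independent and are set side by side only. On the log2 scale mRpL1 stood at -0.69 in old and -0.88 in Lam-RNAi fat body, mRpL39 at -0.61 and -0.86, mRpS16 at -0.72 and -0.84, mRpS17 at -0.67 and -0.50, mRpS28 at -0.51 and -1.08, and mRpS31 at 0.56 and 0.20. Marker levels of several cell types differed between these groups as well. The 13 muscle markers summed to 9334 and 9365 CPM in young fat body, 3742 to 5718 CPM in old and 5445 to 5687 CPM in Lam-RNAi libraries. The 5 oenocyte markers, genes of cuticular hydrocarbon synthesis, summed to 111786 to 112563 CPM in young, 27520 to 45790 CPM in old and 43719 to 46436 CPM in Lam-RNAi libraries. The 8 fat body markers summed to 34861 to 35430 CPM in young, 46236 to 51271 CPM in old and 90589 to 104354 CPM in Lam-RNAi libraries. Hemocyte markers summed to 868 to 924 CPM, 1109 to 1363 CPM and 1287 to 1543 CPM in the same order, ovary and germline markers to 60.4 to 61.3 CPM, 66.0 to 223 CPM and 162 to 183 CPM, and trachea markers to 334 to 341 CPM, 157 to 167 CPM and 292 to 341 CPM. In these fat body groups no muscle, oenocyte, fat body, hemocyte or trachea marker was at 0 in all libraries of a group, whereas the germline markers Vm26Aa and Cp36 were at 0 in young and Cp36 in Lam-RNAi libraries. The part of any of these cells in the fall was not tested.

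In midgut the mitoribosomal genes rose with age. Of the 72 genes, 49 passed (48 higher, 1 lower) in old against young midgut, or 68.1%, against 53.7% of all 10220 genes tested. The excess lay in 1 direction: 66.7% of the 72 rose against 25.0% of all genes, and 1 fell against 28.7% of all genes. The median log2 fold change was 0.31 over the 72 and 0.01 over all genes, and the largest was 0.64, so no member reached 2-fold.

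**Figure D3:**
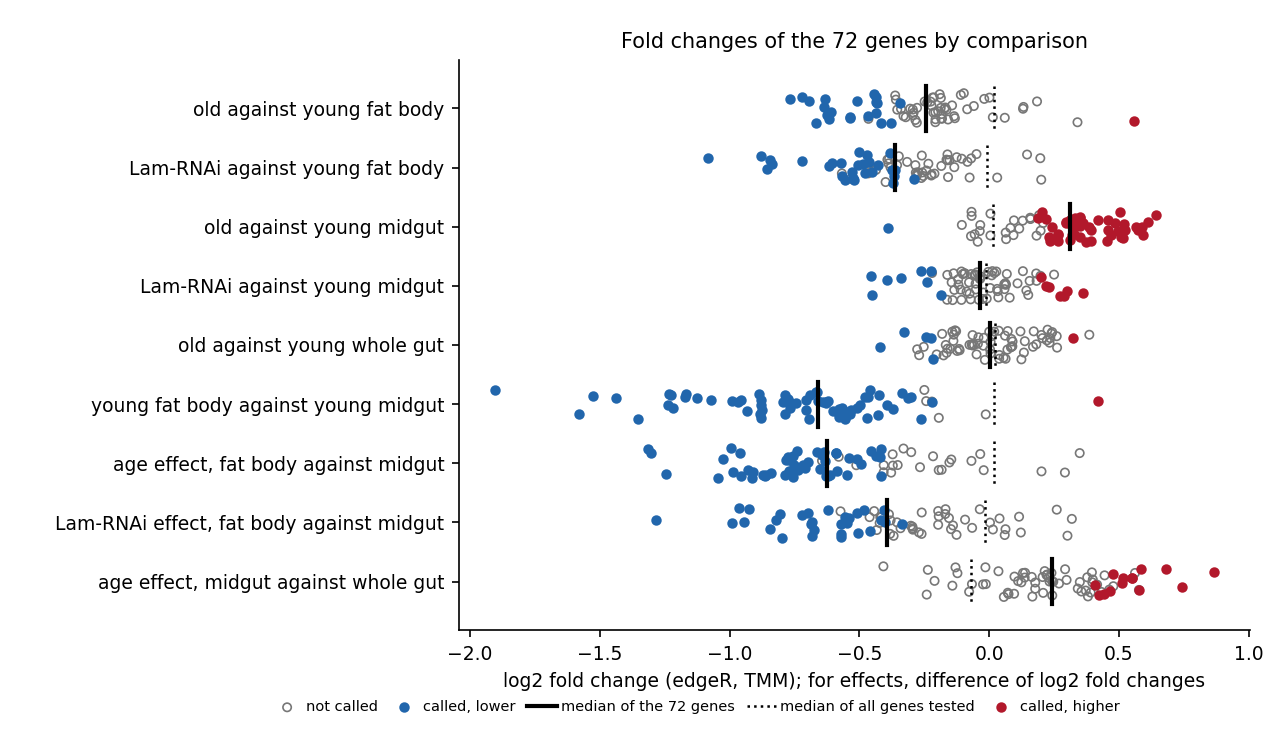
Log2 fold change (x axis) of each of the 72 genes in each comparison (rows); filled points passed the edgeR test at an adjusted p below 0.05, the thick bar is the median of the 72 and the dotted bar the median of all genes tested. The 72 genes lie mostly below 0 in both fat body comparisons (medians -0.24 and -0.36) and mostly above 0 in old midgut (median 0.31).

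mRpL12 (3L, 8949891 to 8950684, plus strand), the stalk protein, was read at 22.7 and 30.1 CPM in young midgut and 38.8 and 42.0 CPM in old midgut. Both old libraries lay above both young ones, and the log2 fold change was 0.57 ± 0.10 (SE, edgeR adjusted p = 0.000694). mRpL55 (3R, 14920109 to 14920619, minus strand) was read at 9.92 and 11.7 CPM in young and 16.4 and 18.3 CPM in old libraries (0.64 ± 0.12, edgeR adjusted p = 0.000856), the largest rise. mRpS21, a small-subunit protein with a bacterial counterpart, was read at 11.5 and 13.0 CPM and then 19.5 and 19.3 CPM (0.61 ± 0.09, edgeR adjusted p = 9.79e-05).

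mRpL23, whose bacterial counterpart lies at the mouth of the exit tunnel, rose by 0.59 ± 0.09 on the log2 scale (edgeR adjusted p = 0.000103), and mRpL54, a mitochondrial addition, rose by 0.59 ± 0.08 (edgeR adjusted p = 8.51e-05). mRpL2, part of the peptidyl transferase centre in bacteria, rose by 0.50 (18.2 and 21.5 CPM against 28.6 and 29.6 CPM). mRpS29 rose by 0.32 and mRpL10, the base of the stalk, by 0.24. The 1 member that fell was mRpL22 (X, 16677986 to 16679125, plus strand), a protein that lines the exit tunnel in bacteria, with 30.1 and 32.9 CPM in young and 25.0 and 25.0 CPM in old libraries (-0.39 ± 0.06, edgeR adjusted p = 0.000279). mRpS5, mRpL45, mRpS30 and mRpS34 did not pass, with log2 fold changes of -0.07, 0.12, 0.09 and -0.06.

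Genes with either symbol took part in the rise of old midgut: 30 of 46 mRpL genes rose and 1 fell, and 18 of 26 mRpS genes rose. With bacterial numbers 32 of 42 rose and 1 fell (median 0.33), and with higher numbers 16 of 30 rose (median 0.25). Of the 32 genes free of overlap 18 rose and 1 fell. Without old midgut replicate 2 the count was 24, and 24 of the 49 genes passed with each library left out in turn, mRpL2, mRpL12, mRpL22, mRpL23, mRpL54, mRpL55, mRpS21 and mRpS29 among them, whereas mRpL10 did not pass without young replicate 1 or old replicate 2 (edgeR adjusted p of up to 0.098). Under the 3 other scalings 48 of the 49 kept their call. Fat body markers, present in every midgut group, summed to 4058 and 4950 CPM in young and 1216 and 1312 CPM in old midgut, and muscle markers to 4118 to 4496 CPM in young and 1691 to 1922 CPM in old. The part of these markers' tissues in the rise was not tested.

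The change with age differed between fat body and midgut, and the difference was tested as a contrast in 1 fit of all 17 libraries. All 8 groups shared 1 estimate of spread there. The common biological coefficient of variation was 13.9% in that fit, against 19.4% in the fat body fit and 6.61% in the midgut fit. The shared spread may thus be too small for fat body and too large for midgut, which limits the adjusted p-values. Of the 72 genes, 49 had a more negative change in fat body and none a more positive one (68.1%), against 44.3% of all 11128 genes, 20.4% of them more negative and 23.8% more positive. The median difference was -0.62 on the log2 scale over the 72 and 0.02 over all genes. The largest differences were those of mRpL55 (-1.32 ± 0.23, edgeR adjusted p = 0.000546), mRpL34 (-1.30 ± 0.26, 0.00145), mRpS16 (-1.24 ± 0.18, 0.000115) and mRpL12 (-1.04 ± 0.19, 0.000693), each with its SE and edgeR adjusted p. Each of these 4 passed with any 1 library left out. The 2 comparisons within tissue share no library, and 15 genes passed in both, lower in old fat body and higher in old midgut. They are 71.4% of the 21 that fell and 31.2% of the 48 that rose, and 66.7% of all 72 rose in old midgut, so the share among those that fell is near that of all members: mRpL1, mRpL4, mRpL12, mRpL14, mRpL17, mRpL20, mRpL24, mRpL34, mRpL39, mRpL50, mRpL52, mRpL55, mRpS11, mRpS16 and mRpS17. The list is not firm on the fat body side, where the calls rest on few libraries. Of the 22 calls in old fat body, 15 were kept in every scaling. From the shared list mRpL4, mRpL12, mRpL14, mRpL24, mRpL50 and mRpL52 lost their fat body call under another scaling. mRpS31 rose in both tissues (0.56 and 0.31) and showed no difference that passed (0.20, edgeR adjusted p = 0.236).

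**Figure D4:**
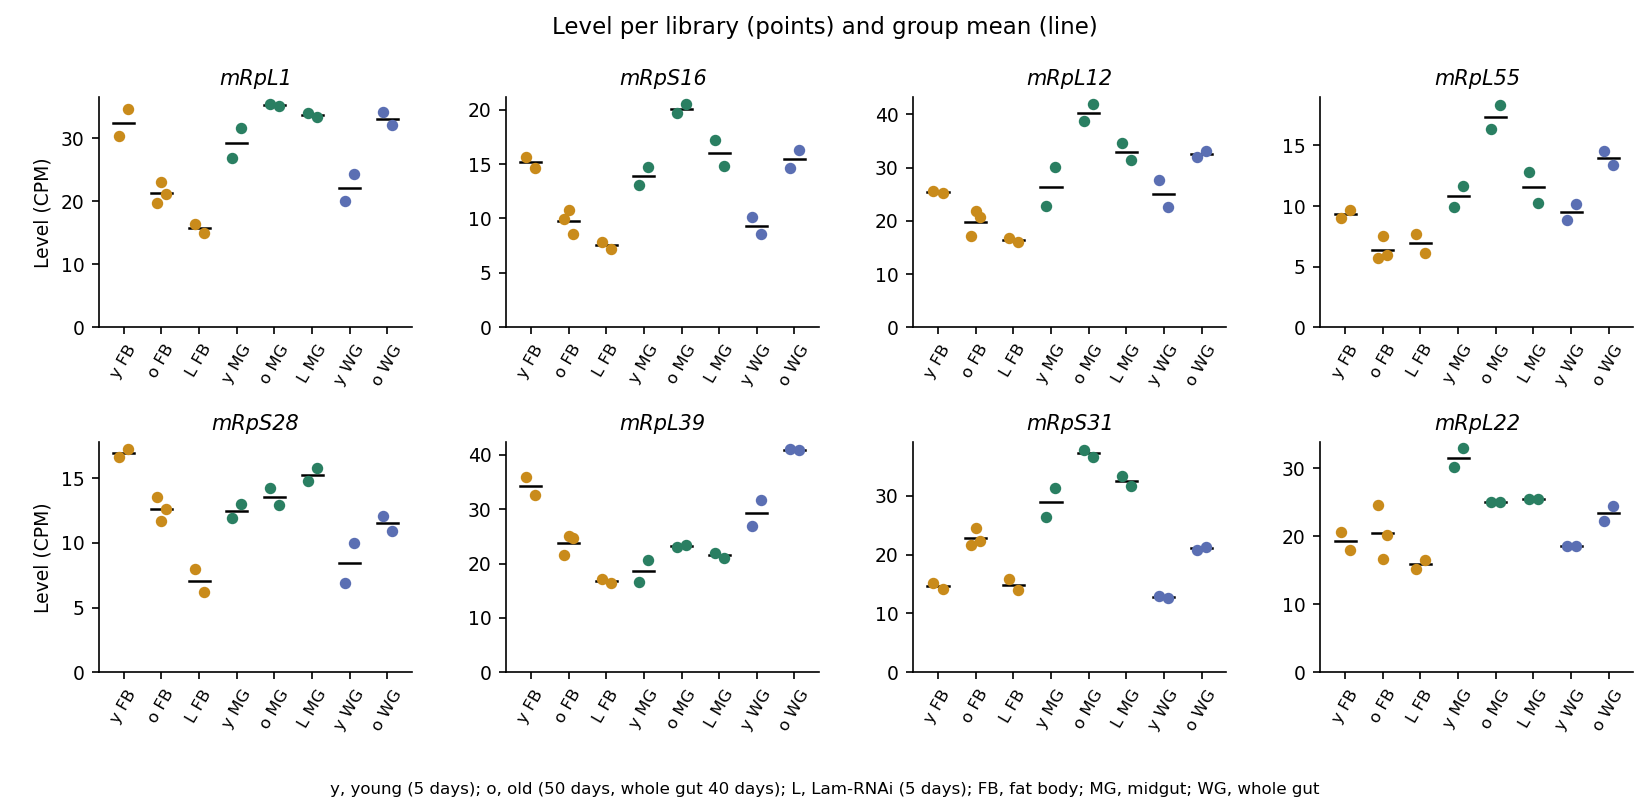
Level in CPM (y axes, each from 0) of 8 genes in every library (points) of the 8 groups (x axis), with the group mean as a line. mRpL1, mRpS16, mRpL12 and mRpL55 are lower in old than young fat body and higher in old than young midgut, mRpS28 and mRpL39 have their lowest group mean in Lam-RNAi fat body, mRpS31 is higher in old libraries of all 3 tissues by CPM, and mRpL22 is lower in old and Lam-RNAi than young midgut.

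Midgut labelled Lam-RNAi showed small changes in both directions. Of the 72 genes, 15 passed (7 higher, 8 lower), or 20.8%, against 55.4% of all 10220 genes (25.5% higher, 29.9% lower), so fewer of them passed than of all genes. The median log2 fold change was -0.04 over the 72 and -0.01 over all genes, and the values ran from -0.45 to 0.36. mRpL2 rose from 18.2 and 21.5 CPM to 28.5 and 27.7 CPM (0.36 ± 0.07, SE, edgeR adjusted p = 0.00109). mRpL27, whose bacterial counterpart reaches toward the peptidyl transferase centre, rose by 0.30, mRpS21 by 0.29 and mRpS29 by 0.27.

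mRpL22 fell from 30.1 and 32.9 CPM to 25.6 and 25.4 CPM (-0.45 ± 0.06, edgeR adjusted p = 7.15e-05), and mRpL48 from 16.8 and 21.7 CPM to 15.7 and 15.3 CPM (-0.45 ± 0.09, edgeR adjusted p = 0.00116). mRpL37, a mitochondrial addition to the large subunit, fell by 0.39 and mRpS6, whose bacterial counterpart lies on the platform of the small subunit, by 0.34. The split depended on scaling: with upper quartile factors 15 genes were higher and 4 lower, and with total counts 15 were higher and 3 lower. The genes kept under all scalings and with each library left out were mRpL2, mRpL22, mRpL37 and mRpL48. mRpS6 passed with each library left out but not with total counts (-0.19, edgeR adjusted p = 0.151). Without Lam-RNAi replicate 1 the count was 9 and without replicate 2 it was 9. mRpL27 and mRpS21 did not pass without young replicate 1 or Lam-RNAi replicate 1, with edgeR adjusted p-values of up to 0.135 and 0.14, and mRpS29 had 0.0571 without young replicate 1. Fat body markers summed to 993 and 1022 CPM in these libraries against 4058 and 4950 CPM in young midgut, and their part in these values was not tested.

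As a difference between tissues, the Lam-RNAi change was more negative in fat body than in midgut for 30 of the 72 genes and more positive for none (41.7%), against 46.7% of all 11128 genes, 22.5% of them more negative and 24.1% more positive. The median difference was -0.39 over the 72 and -0.01 over all genes. mRpS28 had the largest difference (-1.28 ± 0.21, SE, edgeR adjusted p = 0.000303), followed by mRpL1 (-0.99 ± 0.16, 0.000285), mRpL39 (-0.96 ± 0.15, 0.000229) and mRpS16 (-0.94 ± 0.19, 0.00127). The count was 18 without young fat body replicate 1, and with DESeq2 size factors it was 17, of which 3 were more positive and 14 more negative. With any 1 library left out mRpS28, mRpL1, mRpL39 and mRpS16 all passed.

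In whole gut the direction of the mitoribosomal genes with age depended on how libraries were scaled. With TMM factors 6 of the 72 passed (1 higher, 5 lower), or 8.33%, against 43.6% of all 9773 genes (20.1% higher, 23.4% lower), and the median log2 fold change was 0.00 over the 72 and 0.02 over all genes. With total counts alone 65 were higher and none lower, and with upper quartile factors 7 were higher and 1 lower. Total counts moved the median of all genes to 0.52 and that of the 72 to 0.50, so the 72 stayed with the bulk of genes under each scaling. The gene with the smallest p-value was mRpS5 (3L, 24530334 to 24536634, plus strand), read at 76.4 and 83.0 CPM in young and 93.1 and 86.0 CPM in old whole gut. Its log2 fold change was -0.33 ± 0.07 with TMM factors (SE, edgeR adjusted p = 0.00181) and 0.17 with total counts, a reversal.

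Lower calls with TMM were also those of mRpL41 (-0.42), mRpL35 (-0.24), mRpS9 (-0.23) and mRpL28 (-0.22). With total counts the last 3 reversed to 0.25, 0.27 and 0.28. mRpL37 was higher under all 4 scalings, with 14.0 and 13.4 CPM in young and 24.3 and 24.3 CPM in old whole gut (0.32 ± 0.11, edgeR adjusted p = 0.0288). Leaving out young replicate 1 gave 12 calls, young replicate 2 gave 20, and either old replicate gave 1. In the fits without an old replicate mRpL28, mRpL35, mRpL37, mRpL41 and mRpS9 did not pass, with adjusted p-values of up to 0.196, 0.357, 0.219, 0.255 and 0.205, and mRpS5 passed throughout. mRpL41, whose groups overlapped by CPM, also did not pass without young replicate 1. Enterocyte markers summed to 48215 to 52568 CPM in young and 31004 to 31369 CPM in old whole gut, and their part in these values was not tested.

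The change with age in midgut was set against that in whole gut, a comparison added after the data were seen. Of the 72 genes, 14 had a more positive change in midgut and none a more negative one (19.4%), against 30.0% of all 11128 genes (12.5% more positive, 17.6% more negative). The medians were 0.24 over the 72 and -0.07 over all genes. With total counts, which moved the median of all genes to -0.50 and that of the 72 to -0.19, none was more positive and 9 were more negative. The largest differences were those of mRpL41, a mitochondrial addition to the large subunit (0.86 ± 0.20, SE, edgeR adjusted p = 0.00572), mRpL54 (0.74 ± 0.21, 0.0188), mRpL12 (0.68 ± 0.20, 0.0215) and mRpS9 (0.59 ± 0.11, 0.00186). The values of mRpS9 are uncertain because it spans wtrw and CG10092. The count was 6 without young midgut replicate 1, 4 without old midgut replicate 2, 8 without old whole gut replicate 1 and 7 without old whole gut replicate 2. mRpL41 and mRpS9 passed throughout, while mRpL54 and mRpL12 did not pass in those without young midgut replicate 1, old midgut replicate 2, young whole gut replicate 1 or old whole gut replicate 2, with edgeR adjusted p-values of up to 0.0872 and 0.103; mRpL12 did not pass without old whole gut replicate 1 either. Old flies were 50 days old in the midgut series and 40 days old in the whole gut series, so age and sample type cannot be told apart here.

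**Figure D5:**
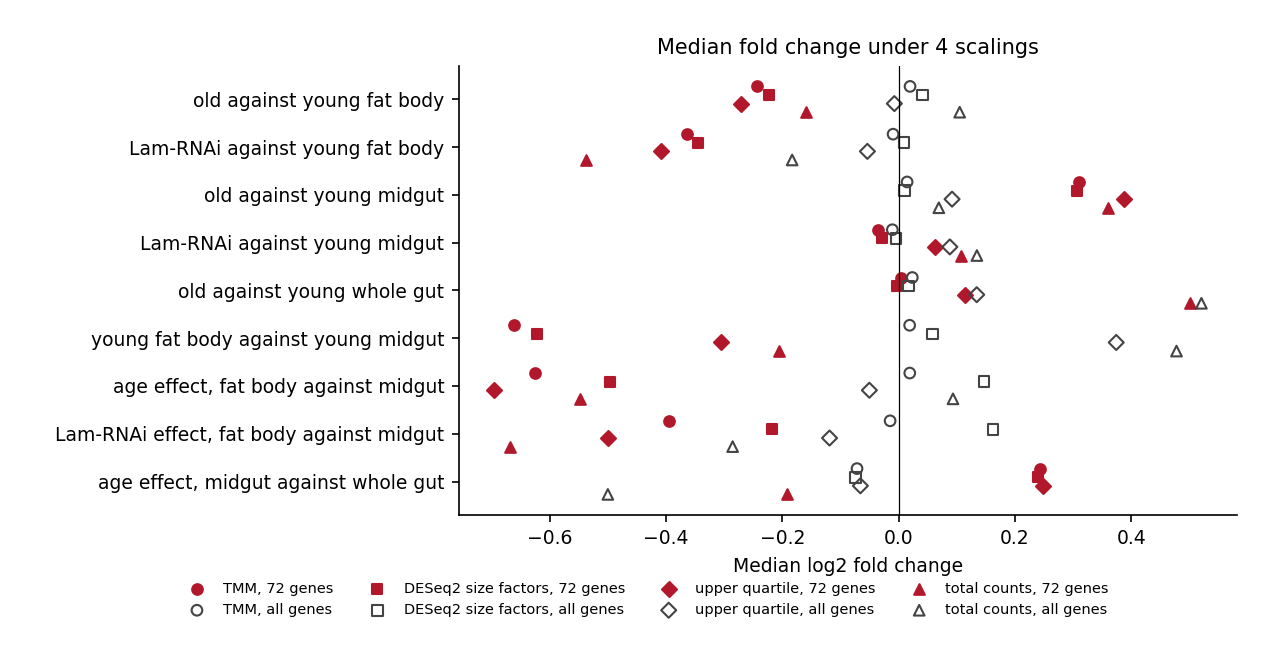
Median log2 fold change (x axis) over the 72 genes (filled) and over all genes tested (open) in each comparison (rows) under 4 scalings of library size (marker shape). In old whole gut both medians move together, from 0.00 and 0.02 with TMM to 0.50 and 0.52 with total counts, whereas in fat body the 72 lie below all genes and in old midgut above them under every scaling.

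The tissues also differed before ageing. In young fat body against young midgut 67 of the 72 genes passed (1 higher, 66 lower), or 93.1%, against 69.3% of all 11128 genes (34.3% higher, 35.0% lower), with medians of -0.66 and 0.02. Total counts left 31 calls (4 higher, 27 lower) with a median of all genes of 0.48, and upper quartile factors left 36 (1 higher, 35 lower) with a median of 0.37. The lowest was mRpL48 (2L, 1710465 to 1711466, plus strand), with 6.62 and 7.41 CPM in fat body and 16.8 and 21.7 CPM in midgut (-1.90 ± 0.14, SE, edgeR adjusted p = 3.24e-08). mRpL10 was read at 15.8 and 15.2 CPM in fat body and 31.2 and 36.2 CPM in midgut (-1.58 ± 0.12, edgeR adjusted p = 4.76e-08). The log2 fold changes of mRpS6 and mRpS31 were -1.53 and -1.44, and mRpL48, mRpL10, mRpS6 and mRpS31 passed under all 4 scalings. Between these groups oenocyte markers summed to 111786 to 112563 CPM in fat body and 2905 to 3681 CPM in midgut, and muscle markers to 9334 to 9365 CPM and 4118 to 4496 CPM. Their part in the difference was not tested.

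The 1 member higher in young fat body was mRpL39, with 35.9 and 32.6 CPM against 16.6 and 20.7 CPM in midgut (0.42 ± 0.11, edgeR adjusted p = 0.004). It passed under all 4 scalings, but without young midgut replicate 1 its adjusted p was 0.0511. In whole gut mRpL39 was read at 27.0 and 31.8 CPM when young and 41.1 and 40.8 CPM when old, its highest group. mRpS28 did not pass between the young tissues (-0.01, edgeR adjusted p = 0.943).

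Genes that work beside the mitoribosomal proteins were counted from lists drawn up with earlier results of these data known. tko and bonsai encode the fly counterparts of bacterial ribosomal proteins S12 and S15 in the mitoribosome and lie outside the naming rule. Under all 4 scalings both fell in old fat body (tko -0.45, bonsai -0.33) and with Lam-RNAi there (-0.51 and -0.46), and both rose in old midgut (0.50 and 0.32). Neither passed in midgut labelled Lam-RNAi. Of all genes, 19.0% fell in old and 17.1% in Lam-RNAi fat body, and 25.0% rose in old midgut. Of 10 mitochondrial translation factors, 5 fell in old and 4 in Lam-RNAi fat body, while 8 rose in old midgut, with no call in the other direction. Under other scalings these counts were 5, 4 to 6 and 7 to 10. CG12736, from that list, had log2 fold changes of -0.92 and -1.25 in old and Lam-RNAi fat body, and of 0.49 in old midgut.

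Of 11 genes for the upkeep and transcription of mitochondrial DNA, 5 fell in old and 7 in Lam-RNAi fat body, and 6 rose in old midgut. The shares of all genes were 19.0%, 17.1% and 25.0% in that order, and 25.5% rose in midgut labelled Lam-RNAi. In midgut labelled Lam-RNAi 6 of these 11 rose and none fell, mtRNApol, the mitochondrial RNA polymerase, by 0.79 ± 0.08 on the log2 scale (edgeR adjusted p = 2.6e-06). Of 15 listed genes of mitochondrial tRNA synthetases and their relatives, 1 rose and 2 fell in old fat body. The 1 that rose was the relative Slimp (CG31133). In Lam-RNAi fat body 6 of the 15 fell, and in old midgut 5 rose. Of all genes, 19.1% rose and 19.0% fell in old fat body, 17.1% fell in Lam-RNAi fat body and 25.0% rose in old midgut. Calls in either direction were 38.1% in old and 35.7% in Lam-RNAi fat body. Among 7 regulators of mitochondrial gene expression edgeR called none in old or Lam-RNAi fat body, with 2 and 1 at an unadjusted p below 0.05. Upper quartile factors gave 1 lower in each, and total counts 4 lower in the second. In old midgut 4 of the 7 rose and 1 fell: Spargel, the fly PGC-1 homologue, rose by 0.68 and dm, the fly Myc gene, by 1.09, while Cdk4, a cyclin-dependent kinase, fell by 0.70. In midgut labelled Lam-RNAi 5 of the 7 rose and none fell, Spargel by 0.76 and dm by 1.83.

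The 26 respiratory chain and ATP synthase genes of the nuclear genome, whose products join those made on the mitoribosome, gave other counts. In old fat body 12 fell and none rose (median -0.48), and in Lam-RNAi fat body 2 fell with TMM and 13 with total counts. With TMM, 19.0% and 17.1% of all genes fell there, and in old midgut 25.0% rose and 28.7% fell. In old midgut 2 rose and 3 fell with TMM, and 4 rose and 2 fell with upper quartile factors, against 48 and 1 of the 72 mitoribosomal genes with TMM. In midgut labelled Lam-RNAi 14 fell and none rose (5 fell with total counts), and in old whole gut all 26 fell with TMM (median -0.49), whereas with total counts 5 rose and 2 fell. Of all genes, 29.9% fell in midgut labelled Lam-RNAi and 23.4% in old whole gut with TMM. All 26 were lower in young fat body than in young midgut (median -0.96), against 35.0% of all genes. With total counts 23 of the 26 were lower.

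Cytoplasmic ribosomal proteins, which build the ribosome of the cytosol, gave another pattern. In midgut labelled Lam-RNAi 76 of 78 tested rose and 1 fell, under each of the 4 scalings, beside 7 and 8 of the 72 mitoribosomal genes. In old midgut 36 of 78 rose and 1 fell, which became 57 and 1 with upper quartile factors. In old fat body 5 of 79 rose and 10 fell, which became 8 and 8 with total counts. In Lam-RNAi fat body 4 of 79 rose and 15 fell, which became 3 and 55 with total counts. With TMM, 25.5% of all genes rose in midgut labelled Lam-RNAi and 25.0% in old midgut. In old and Lam-RNAi fat body 19.0% and 17.1% of all genes fell. Differences between these lists and the 72 genes were not tested, and the counts are given as a description.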

How the data were processed

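Each deposited file gives a raw count of reads for every annotated gene in 1 library, as the authors made it. Per the labels' protocols, RNA was extracted with a PicoPure kit and poly-A libraries were made with a TruSeq kit. Per the submitters' processing notes, CASAVA 1.8, TopHat2 and edgeR were used. The counting tool, its strand setting and the genome build are not given in the sources used here. Positions look like release 5 of the fly genome; a later annotation supplied coding lengths only. Entries that share position and counts were merged (15080 to 14095). edgeR 4.0.16 in R 4.3.3 tested all genes that passed filterByExpr, using TMM factors and the robust quasi-likelihood method, and p-values were adjusted by Benjamini and Hochberg over all genes, with a threshold of 0.05. Each tissue had its own fit. Comparisons between tissues came from a fit of all 17 libraries, whose groups shared 1 estimate of spread although fat body varied more than gut. Residual degrees of freedom were 4 (fat body), 3 (midgut), 2 (whole gut) and 9 (all). SE was taken as the size of the log2 fold change divided by the root of F. Alternatives included DESeq2 1.42.0 and limma 3.58.1. The fits were tested on simulated data. The series design calls the replicates biological, but the labels do not say whether separate flies were used, so the p-values speak only to spread among these libraries. A count of 3 corresponds to 0.0383 to 0.0948 CPM, which covers counting error only. Members and lists were chosen with earlier results of these data known; 2 of 244 listed entries were unmatched. Named were, in each comparison, up to 4 called members with the largest change each way and groups that do not overlap, the 3 highest and 3 lowest per coding length, and 8 fixed members; others were named after their values were seen, where a count turns on them. Figures were drawn with matplotlib 3.10.9.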

Additional observations from a re-analysis of the deposited data

Results flagged for a closer look

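Differences between tissues were tested directly. The change with age was more negative in fat body than in midgut for 49 of the 72 mitochondrial ribosomal protein genes and more positive for none, against 20.4% and 23.8% of all genes (44.3% called in either direction). The Lam-RNAi change was more negative in fat body for 30 of the 72 (41.7%), against 46.7% of all genes called, 22.5% of them more negative; with DESeq2 size factors 17 were called, 3 more positive and 14 more negative. The change with age was more positive in midgut than in whole gut for 14 of the 72 (19.4%), against 30.0% of all genes called, 12.5% of them more positive. None of the 14 kept its call under every scaling; this comparison was added after the data were seen, and the old flies also differed in age (50 against 40 days).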

How the results depend on the processing

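The calls of the 72 genes moved with scaling, replicates and threshold, and causes were not tested. The counts below are given without the share of all genes under each setting. They show only how far the calls moved. With total counts, Lam-RNAi fat body had 49 calls, midgut labelled Lam-RNAi 18, old whole gut 65, young fat body against midgut 31, the Lam-RNAi difference between tissues 48, and the ageing difference between midgut and whole gut 9, all more negative; there the median of all genes moved to -0.50, so the sign of those calls follows the scaling. In old whole gut, total counts also reversed mRpL28 (0.28), mRpL35 (0.25), mRpS5 (0.17) and mRpS9 (0.27). Upper quartile factors gave 19 calls in midgut labelled Lam-RNAi, 8 in old whole gut and 36 between the young tissues. DESeq2 size factors gave 17 for the Lam-RNAi difference. The DESeq2 test gave 10 calls in midgut labelled Lam-RNAi, 3 in old whole gut and 19 for the Lam-RNAi difference. Without a filter midgut labelled Lam-RNAi had 15 (8 higher, 7 lower). With all 17 libraries in the fit, old fat body had 37 calls, old midgut 28, midgut labelled Lam-RNAi 9 and old whole gut 2. At an adjusted p below 0.01, old fat body had 7, Lam-RNAi fat body 10, midgut labelled Lam-RNAi 6, old whole gut 1, the Lam-RNAi difference 17 and the midgut against whole gut difference 5. Leaving out 1 library gave 5 to 34 calls in old fat body, 4 to 9 in Lam-RNAi fat body, 24 to 53 in old midgut, 9 to 14 in midgut labelled Lam-RNAi, 1 to 20 in old whole gut, 45 to 62 between the young tissues, 35 to 56 for the ageing difference between fat body and midgut, 18 to 24 for the Lam-RNAi difference and 4 to 17 for midgut against whole gut. Of 717 alternatives for 44 named values, 652 kept direction and call, 61 lost the call and 4 reversed. The 44 values were picked as called members with the largest changes in these same libraries. Their tally therefore does not speak for the other calls.

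Deviations of same-numbered libraries from their groups were little correlated across genes (correlations of -0.156 to 0.0145). Each group holds too few libraries for these values to show whether the numbers are a pairing or a shared batch. With a replicate block the calls were 2 in old fat body, 8 in Lam-RNAi fat body, 48 in old midgut, 14 in midgut labelled Lam-RNAi (8 higher, 6 lower), 6 in old whole gut, 61 between the young tissues, 38 and 25 for the ageing and Lam-RNAi differences between fat body and midgut, and 9 for midgut against whole gut.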
